A study of Saccharomyces cerevisiae with 28 samples.

Results

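The autophagy genes of baker's yeast (Saccharomyces cerevisiae) were followed here across sucrose concentrations, as the 34 genes whose array annotation gives an upper-case symbol of ATG and a number. They are 34 of the 5449 genes tested, each read by 1 probe set, and none of these probe sets carries the suffix that marks reading of related sequences. ATG6 and ATG24 are annotated under their other names, VPS30 and SNX4, and are therefore described with the other genes of the pathway. Poly(A) RNA was taken after 60 min of fermentation from 2 baker's yeasts, which the labels name only LS and HS, in a medium named LF with 0, 5, 10, 20, 30, 40 or 50% sucrose. The labels explain none of the names LS, HS and LF and give no genotype. The 28 samples are 2 replicate arrays for each of 14 groups, on an Affymetrix array that also carries probe sets of the fission yeast Schizosaccharomyces pombe. Whether replicates were cultured separately is not stated. The p-values therefore describe spread among arrays that may be technical, and having few arrays keeps the precision low.

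Autophagy carries cytoplasm and organelles into the vacuole, the lytic compartment of yeast, inside a double membrane that forms anew each time. A kinase complex around Atg1 starts it, a lipid kinase complex marks the site, vesicles with Atg9 bring membrane, and conjugation enzymes attach the ubiquitin-like protein Atg8 to the lipid of the growing membrane. Receptors that bind Atg8 select cargo such as mitochondria, peroxisomes, endoplasmic reticulum or vacuolar enzymes. In yeast the pathway is best known from nitrogen starvation, and many ATG transcripts are known to rise when the TOR and protein kinase A pathways are turned down. The arrays measured transcripts and not the flux of autophagy.

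The deposited value is a linear ratio to the probe set's usual level, with a median of 1 over the 28 arrays for 33 of the 34 genes (0.258 for ATG16), so it compares arrays for 1 gene and gives no level between genes. The values of the ATG genes ran from 0.0272 to 81.8. The S. pombe probe sets, which have no matching RNA in these samples, had a median ratio of 0.119 to 0.994 on 22 arrays and of 1.51 to 13.7 on the other 6. Those 6 all belong to LS and are replicate 2 at every sucrose concentration except 40%. The correlation of these arrays with replicate 1 of the same group, over all genes, was -0.222 to 0.501. It was 0.471 to 0.725 in the 7 HS groups and 0.870 in LS at 40% sucrose. Results are therefore also given without these 6 arrays, where the remaining single LS arrays are assumed to vary like the other groups.

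The ATG genes were high at 0 and 50% sucrose in HS and at 40 and 50% in LS, and low in the middle of the range. Each value is a mean over a whole culture, where fewer responding cells and less RNA per cell cannot be told apart. In HS the median ratio of the 34 genes was 2.82 and 2.29 on the arrays without sucrose. It was 0.628 to 0.770 on the 6 arrays at 5, 10 and 20%, and 0.615 and 0.621 at 30%. It was 0.838 and 0.954 at 40% and 1.31 and 2.64 at 50%. The HS medians without sucrose and at 40 and 50% thus lay above every HS array from 5 to 30%. In LS the rise came at 40%, with medians of 2.78 and 3.0, followed by 4.70 and 1.98 at 50%. The LS arrays at 5, 10 and 20% had medians of 0.523 to 1.62, those at 30% of 1.03 and 1.45, and those without sucrose of 0.884 and 1.83. On the 6 LS arrays of high S. pombe signal the ATG median was 0.996 to 1.98, and the part of that background in the LS values was not tested.

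**Figure D1:**
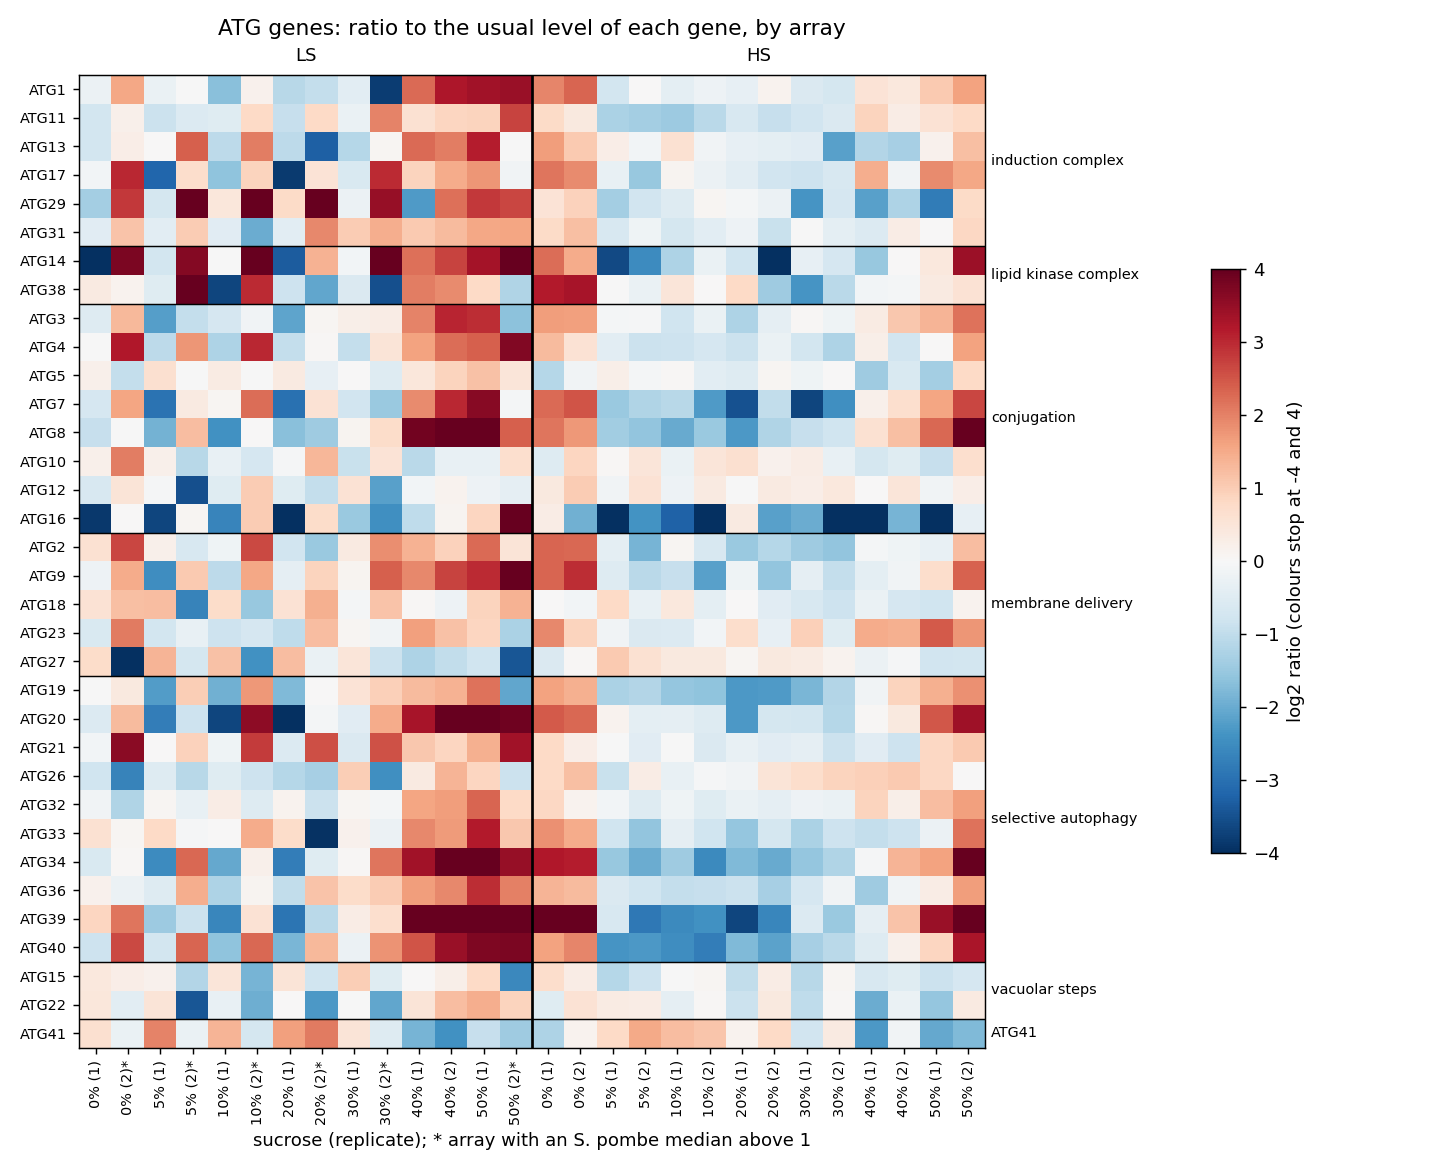
Log2 ratio of the 34 ATG genes (rows, grouped by role) on the 28 arrays (columns, by yeast, sucrose and replicate), from blue (below the gene's usual level) to red (above it). Columns with many red cells lie at 40 and 50% sucrose in LS and at 0 and 50% in HS. LS replicate 2 at 0, 10 and 30% also had ATG medians (1.83, 1.62 and 1.45) above the 1.31 of HS replicate 1 at 50%. Asterisks mark the 6 LS arrays whose S. pombe median was above 1.

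**Figure D2:**
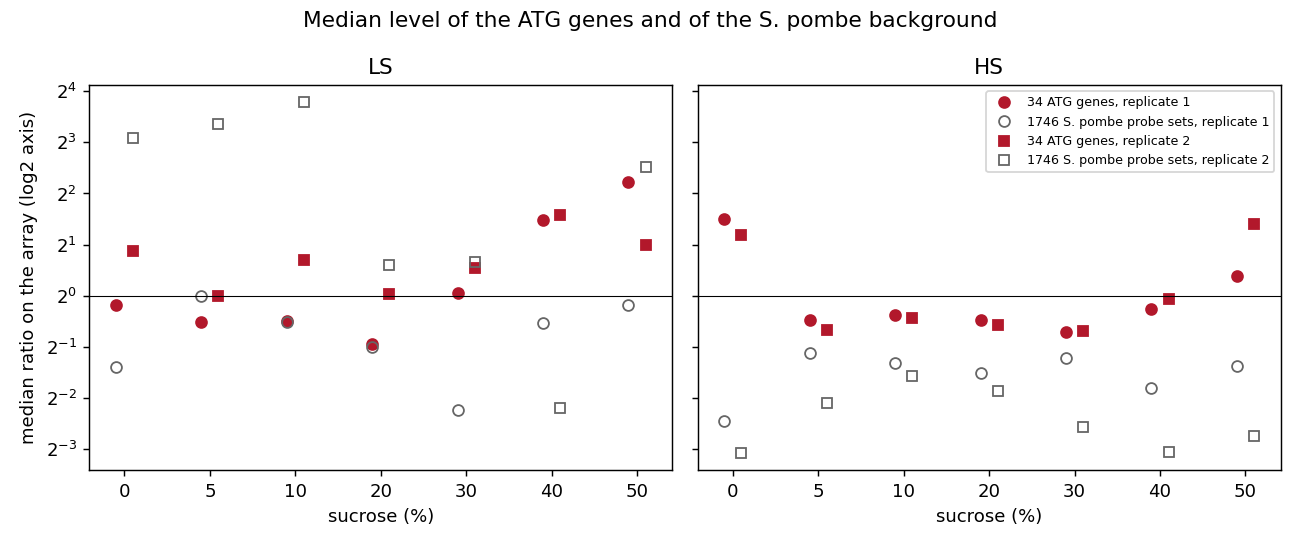
Median ratio of the 34 ATG genes (filled) and of the 1746 S. pombe probe sets (open) on each array against sucrose, on a log2 axis, with LS on the left and HS on the right and circles and squares for replicates 1 and 2. The HS medians of the ATG genes fall from 2.82 and 2.29 without sucrose to 0.615 and 0.621 at 30% and reach 1.31 and 2.64 at 50%.

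Each response was tested as the difference on the log2 scale between 0, 40 or 50% sucrose (2 arrays) and the mean of the 5, 10 and 20% groups (6 arrays) of the same yeast. Changes are given as this difference ± SE from limma, with p adjusted over all 5498 probe sets tested, and a gene is said to have risen or fallen where the adjusted p was under 0.05. Positive changes were seen for 23, 29 and 30 of the 34 genes in LS at 0, 40 and 50% sucrose, and for 29, 22 and 25 in HS, where 46.2%, 44%, 44.8%, 38.1%, 47.4% and 45.8% of all probe sets had one. The comparisons within a yeast share the 5 to 20% arrays and are not independent. Over the 6 responses 17 of the 34 genes passed the test at least once, 16 as rises and 1, ATG41, as a fall, and 17 passed in none. Of the 17 that passed, 13 did so in LS, 13 in HS and 9 in both yeasts. How many of all probe sets passed at least once, or in both yeasts, was not counted. These totals therefore have no background beside them, and the shares for single responses follow.

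In LS at 40% sucrose 8 of the 34 genes (23.5%) passed, where 17.9% of all probe sets did, so the share alone was close to the background. The direction was not, with 7 rises and 1 fall against 9.73% and 8.17% of all probe sets, and the median change was 1.80 for the ATG genes and -0.25 for all probe sets. Both 40% arrays lay above all 6 reference arrays for 12 genes and below them for 1, against 14.7% and 14.8% of all probe sets. The S. pombe median changed by -2.42 in this comparison. Without the 6 arrays 25 genes passed (23 up, 2 down), against 54% of all probe sets (22% and 31.9%). The count was 2 without replicate 2 at 40%, and 13 and 14 without replicate 2 at 5% or at 10%.

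In LS at 50% sucrose 12 genes (35.3%) passed against 22.1% of all probe sets, 11 as rises and 1 as a fall against 11% and 11.1%. The median change was 1.73 against -0.26 for all probe sets. The 2 arrays lay above the reference arrays for 11 genes and below for 1, against 11.4% and 10.9%. Without the 6 arrays 26 genes passed (24 up, 2 down) against 49.7% (22.9% and 26.8%), and without replicate 1 at 50% the count was 7. The change from the reference to 0% sucrose in LS passed for none of the ATG genes by limma, against 0.109% of all probe sets, with 3 of them at an unadjusted p under 0.05 (7.04% of all probe sets) and a median change of 0.65 against -0.08. It passed for 1 gene without the 6 arrays (ATG20, against 0.437% of all probe sets) and also for 1 without replicate 1 at 0%.

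In HS without sucrose 10 genes (29.4%) passed, all as rises, where 8.35% of all probe sets passed, 5.51% as rises and 2.84% as falls. The median change was 1.78 against -0.31 for all probe sets. For 26 of the 34 genes both arrays lay above all 6 reference arrays and for 2 below them, against 19.1% and 31.9% of all probe sets. The count fell to 1 without either HS array at 0% sucrose. The test shares 1 spread per gene over both yeasts, and without the 6 LS arrays 24 genes passed (23 up, 1 down), against 34.1% of all probe sets (14.2% and 20%), at the same changes.

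In HS at 40% sucrose none of the ATG genes passed by limma, against 2.42% of all probe sets, with 7 at an unadjusted p under 0.05 (12.3% of all probe sets) and a median change of 0.56 against -0.06. Both arrays lay above the reference arrays for 12 genes and below for 5, against 17% and 21.6%. There was 1 pass without either LS array at 10%, and without the 6 arrays 11 genes passed (10 up, 1 down) against 21.5% (9.35% and 12.1%). In HS at 50% sucrose 9 genes (26.5%) passed, 8 as rises and ATG41 as a fall, where 15.1% of all probe sets passed (8% and 7.06%). The median change was 1.53 against -0.13. Both arrays lay above the reference arrays for 20 genes and below for 2, against 24.2% and 30% of all probe sets. The count was 4 without replicate 1 and 2 without replicate 2 at 50%, and 23 (21 up, 2 down) without the 6 LS arrays, against 47.3% (21.4% and 25.9%). A test over all 7 concentrations passed for 7 genes in LS (ATG1, ATG8, ATG20, ATG32, ATG34, ATG39 and ATG41) against 14.5% of all probe sets, and for 4 in HS (ATG7, ATG8, ATG34 and ATG39) against 6.6%. These counts were 11, 4 and 3 in LS without replicate 2 at 10% and replicates 1 and 2 at 40%, and 2 and 1 in HS without replicate 1 at 0% and replicate 2 at 50%.

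**Figure D3:**
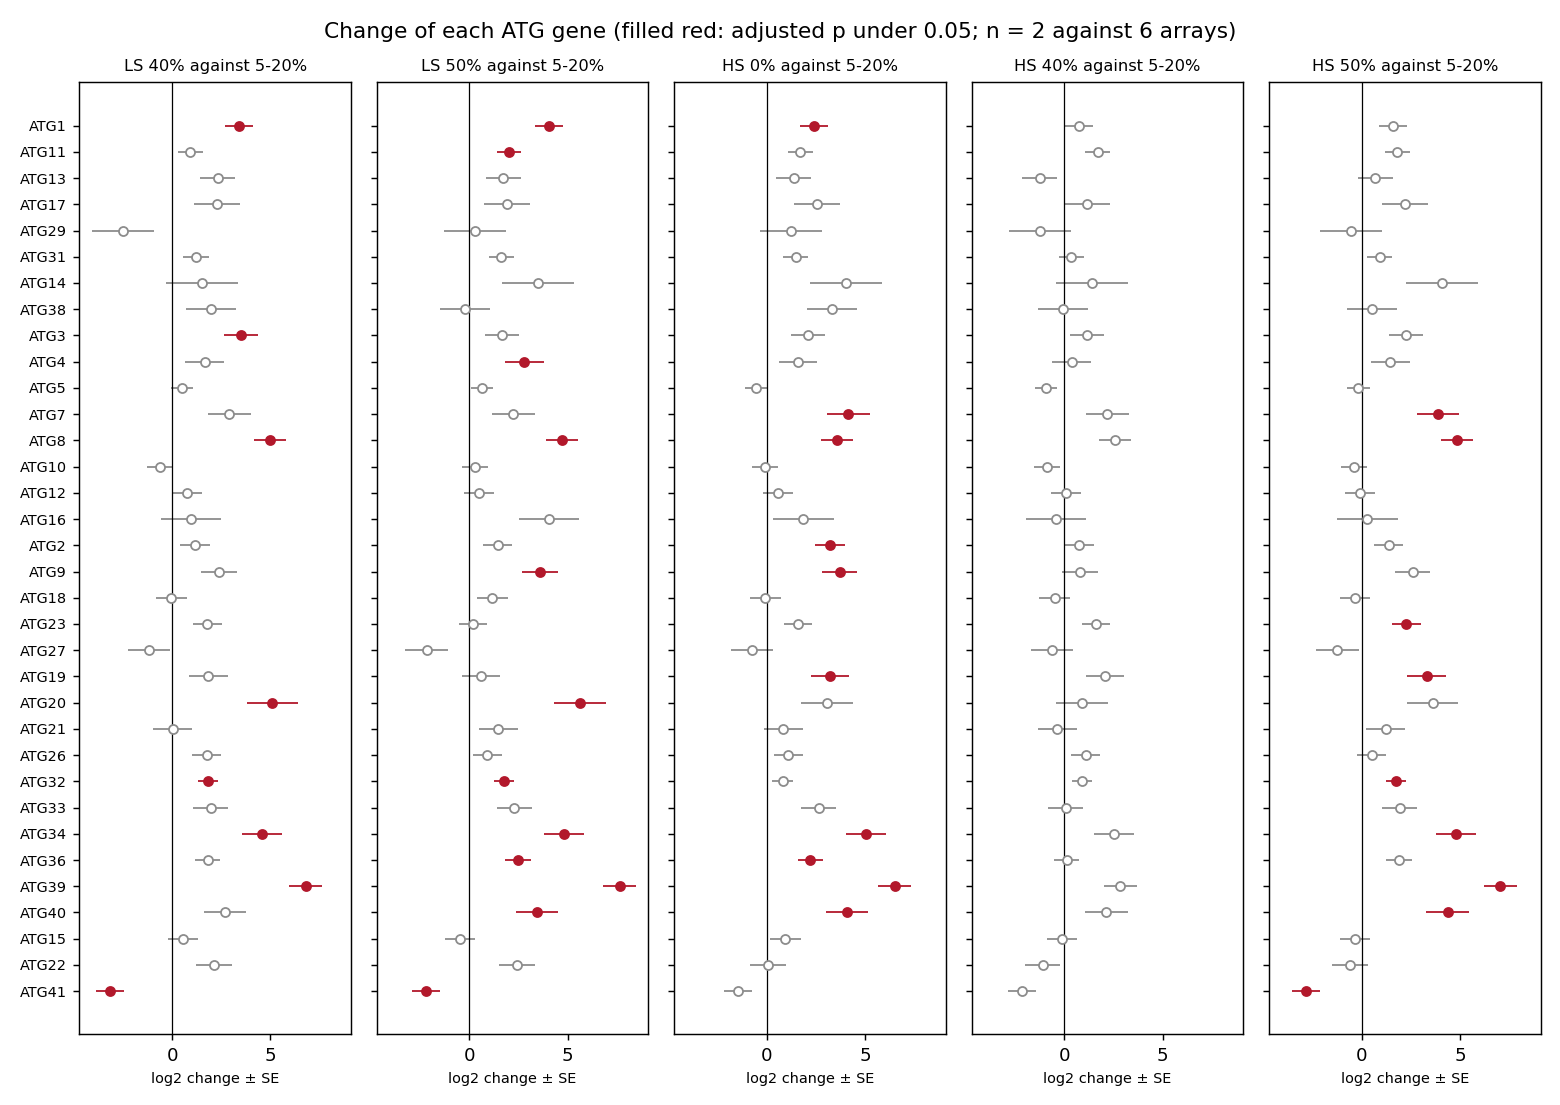
Log2 change (± SE) of each ATG gene at 40 and 50% sucrose in LS and at 0, 40 and 50% in HS, against the 5 to 20% groups of the same yeast (n = 2 against 6 arrays), with filled red points for an adjusted p under 0.05. The receptor genes ATG39 and ATG34 and the ubiquitin-like ATG8 lie far to the right in 4 of the 5 panels, ATG41 lies on the left in all 5, and no point is filled for HS at 40%.

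The induction complex was led by ATG1, which encodes the kinase that starts autophagy. In LS its ratio was 4.84 and 9.44 on the 40% arrays and 10.3 and 11 on the 50% arrays, against 0.311 to 1.13 (median 0.673) on the 6 arrays at 5 to 20%. All 4 arrays stood above the reference, and the gene rose by 3.40 ± 0.71 at 40% (10.5-fold, adjusted p = 0.0025) and by 4.05 ± 0.71 at 50% (16.6-fold, adjusted p = 0.00056). In HS it was 3.85 and 5.06 without sucrose, against 0.597 to 1.10 (median 0.830), a rise of 2.40 ± 0.71 (adjusted p = 0.039). The HS arrays at 40% (1.47 and 1.33) and 50% (2.06 and 3.05) also lay above their reference, but the changes of 0.74 ± 0.71 and 1.58 ± 0.71 did not pass (adjusted p = 0.82 and 0.15). In LS without sucrose it was 0.859 and 2.95, overlapping the reference, with a change of 1.31 ± 0.71 (adjusted p = 0.73).

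ATG11, the scaffold of selective autophagy, was 1.87 and 6.54 in LS at 50% against 0.530 to 1.75, and rose by 2.01 ± 0.63 (adjusted p = 0.029). In HS its arrays at 0, 40 and 50% all lay above the reference of 0.363 to 0.644, at 1.23 to 1.86, without passing (changes of 1.70 to 1.81, adjusted p = 0.061 to 0.21). The other 4 members, the regulatory subunit ATG13 and the scaffold genes ATG17, ATG29 and ATG31, passed in no response. ATG13 was 4.84 and 4.17 in LS at 40%, but 1 reference array was at 5.30 and the others ran down to 0.103. ATG17 was 4.44 and 3.70 in HS without sucrose against 0.352 to 1.08, a change of 2.54 ± 1.17 (adjusted p = 0.24). ATG31 was 1.71 and 2.29 there against 0.545 to 0.891, a change of 1.48 ± 0.64 (adjusted p = 0.21). All 6 genes of the complex lay above their reference arrays in HS without sucrose, against 26 of the 34 ATG genes and 19.1% of all probe sets.

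The 2 genes of the lipid kinase complex, ATG14, which directs the kinase to autophagy, and ATG38, a subunit that holds the complex together, passed in no response. ATG14 was 4.71 and 2.78 in HS without sucrose and 1.35 and 10.8 at 50%, all above the reference of 0.0448 to 0.828, with changes of 4.01 ± 1.83 and 4.08 ± 1.83 (adjusted p = 0.23 and 0.15). In LS it was 4.62 and 6.53 at 40% and 10.0 and 43.4 at 50%, but its reference ran from 0.0987 to 22.8 (median 1.80), so the groups overlapped. Its first LS replicates at 5 to 20% were 0.0987 to 0.979, and on the second replicates at 0 and 30% it was 13.7 and 21.6 where the first were 0.0419 and 0.921, so the high values lie on the arrays of high S. pombe signal, whose part was not tested. Without those arrays ATG14 rose by 3.83 and 4.70 at 40 and 50% in LS. ATG38 was 9.04 and 9.77 in HS without sucrose against 0.376 to 1.73, a change of 3.30 ± 1.27 (adjusted p = 0.14).

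Among the 8 conjugation genes ATG8 moved most often, with a rise in 4 of the 6 responses. ATG8 encodes the ubiquitin-like protein that coats the growing membrane. In LS it was 14.5 and 16.9 at 40% and 31.2 and 5.19 at 50%, against 0.187 to 2.35 (median 0.344). The 30% arrays, at 1.09 and 1.66, lay within the reference range and the 40 and 50% arrays above it. It rose by 4.99 ± 0.81 at 40% (31.9-fold, adjusted p = 0.00039) and by 4.70 ± 0.81 at 50% (25.9-fold, adjusted p = 0.00049). In HS it was 4.40 and 3.30 without sucrose, 1.52 and 2.30 at 40% and 4.92 and 17.4 at 50%, against 0.203 to 0.433 (median 0.346). All 6 of these arrays stood above the reference. The rise was 3.59 ± 0.81 without sucrose (adjusted p = 0.0072) and 4.87 ± 0.81 at 50% (29.3-fold, adjusted p = 0.00051), while the 2.57 ± 0.81 at 40% did not pass (adjusted p = 0.11). In LS without sucrose ATG8 was 0.532 and 0.986, within the range of its reference (0.56 ± 0.81, adjusted p = 0.92).

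ATG7, the activating enzyme shared by both conjugation systems, was 4.86 and 5.71 in HS without sucrose and 3.01 and 6.44 at 50%, against 0.0897 to 0.501 (median 0.396). It rose by 4.15 ± 1.08 (17.8-fold, adjusted p = 0.020) and 3.89 ± 1.08 (14.9-fold, adjusted p = 0.019), and its 40% arrays were 1.15 and 1.61 (2.20 ± 1.08, adjusted p = 0.42). In LS it was 3.73 and 8.12 at 40% and 12.5 and 0.946 at 50%, and its reference of 0.125 to 4.66 overlapped both. The changes of 2.92 ± 1.08 and 2.24 ± 1.08 did not pass (adjusted p = 0.068 and 0.15), nor did 0.90 ± 1.08 without sucrose (0.623 and 2.98, adjusted p = 0.89). Without the 6 arrays ATG7 rose by 4.42 and 5.60 in LS at 40 and 50%.

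ATG3, the enzyme that hands Atg8 to its lipid, was 3.98 and 8.28 in LS at 40% against 0.218 to 1.05 (median 0.573) and rose by 3.52 ± 0.86 (11.5-fold, adjusted p = 0.0076). At 50% its arrays were far apart, at 7.68 and 0.323, and the second is 1 of the 6 arrays. ATG4, the protease that trims Atg8 and frees it again, was 5.30 and 13.1 in LS at 50% and rose by 2.80 ± 0.98 (adjusted p = 0.046), although 1 reference array reached 8.10. That call was lost on leaving out any one of 21 arrays. Of the Atg12 branch, ATG5, ATG10, ATG12 and ATG16 passed in no response, with changes of -0.91 to 4.04 at 0, 40 and 50% in both yeasts. Without the 6 arrays none of ATG5, ATG10, ATG12 and ATG16 passed in these responses either. ATG5, to which Atg12 is joined, stayed between 0.372 and 2.23 on the arrays at 0, 40 and 50%. ATG16, whose product links the conjugate to the membrane, had the value of 4.04 ± 1.54 in LS at 50% from arrays at 1.80 and 21.1.

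Of the 5 genes of membrane delivery, ATG9 and ATG2 rose in HS without sucrose. ATG9 encodes the membrane protein of the vesicles that seed the new membrane. In HS it was 4.97 and 7.80 without sucrose against 0.222 to 0.879 (median 0.501), and rose by 3.71 ± 0.90 (13.1-fold, adjusted p = 0.012). At 50% it was 1.63 and 5.10, also above the reference, with a change of 2.60 ± 0.90 (adjusted p = 0.056), and at 40% it was 0.759 and 0.910, overlapping it (0.81 ± 0.90, adjusted p = 0.86). In LS it was 3.77 and 6.54 at 40% and 7.86 and 16.5 at 50%, above a reference of 0.179 to 2.93 (median 1.32). The rise of 3.58 ± 0.90 at 50% passed (11.9-fold, adjusted p = 0.0075), and the 2.38 ± 0.90 at 40% did not (adjusted p = 0.072). Without sucrose it was 0.860 and 2.82, overlapping the reference (0.71 ± 0.90, adjusted p = 0.90).

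ATG2, a lipid transfer protein at the growing edge, was 4.98 and 4.95 in HS without sucrose against 0.273 to 1.06, and rose by 3.22 ± 0.75 (adjusted p = 0.0093). ATG23, which helps Atg9 to move, was 5.48 and 3.40 in HS at 50% against 0.668 to 1.62, and rose by 2.28 ± 0.73 (adjusted p = 0.041). ATG18, a lipid-binding partner of Atg2, and ATG27, another helper of Atg9 traffic, passed in no response. ATG27 was the only member beside ATG41 to lie below its reference at 0, 40 and 50% in HS, at 0.589 to 1.03 against 1.05 to 2.08, with changes of -0.76, -0.63 and -1.23 ± 1.08 (adjusted p = 0.77, 0.95 and 0.51). Without the 6 arrays ATG27 fell, by 2.35 and 2.05 in LS at 40 and 50% and by 0.76 and 1.23 in HS at 0 and 50%.

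The 10 genes of selective autophagy held the largest changes among the ATG genes. All 10 had positive changes at 40 and 50% in LS and at 0 and 50% in HS. So had 29, 30, 29 and 25 of the 34 ATG genes, and 44%, 44.8%, 38.1% and 45.8% of all probe sets. In these responses 4, 6, 5 and 5 of the 10 passed, against 17.9%, 22.1%, 8.35% and 15.1% of all probe sets. The largest change was that of ATG39, the receptor for the nuclear envelope and the endoplasmic reticulum around it. In LS it was 29.7 and 59.8 at 40% and 81.8 and 71.3 at 50%, against 0.132 to 1.49 (median 0.421) at 5 to 20%. It rose by 6.79 ± 0.83 (110-fold, adjusted p = 3.9e-05) and by 7.64 ± 0.83 (200-fold, adjusted p = 8.6e-06). At 30% it was 1.22 and 1.61, so most of the rise lay between 30 and 40%. Its HS values were 16.6 and 16.4 without sucrose and 10.9 and 54.4 at 50%, against 0.0784 to 0.637 (median 0.167), rises of 6.50 ± 0.83 (90.5-fold, adjusted p = 0.00012) and 7.06 ± 0.83 (134-fold, adjusted p = 3.3e-05). The HS arrays at 40%, at 0.780 and 2.21, were above the reference as well (2.85 ± 0.83, adjusted p = 0.079), and so were those of LS without sucrose, at 1.80 and 4.39 (2.88 ± 0.83, adjusted p = 0.50).

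ATG34 and ATG19 are neighbouring paralogous genes on chromosome XV, and both encode receptors that deliver vacuolar enzymes, Atg34 mainly under starvation. ATG34 was 10.2 and 16.8 in LS at 40% and 20.1 and 11.3 at 50%, against 0.146 to 4.90 (median 0.480), and rose by 4.59 ± 1.01 (24.1-fold, adjusted p = 0.0037) and 4.80 ± 1.01 (27.9-fold, adjusted p = 0.0024). The HS arrays gave 9.21 and 8.78 without sucrose and 3.05 and 19.3 at 50%, against 0.170 to 0.373 (median 0.272). The rises were 5.05 ± 1.01 (33.1-fold, adjusted p = 0.0031) and 4.82 ± 1.01 (28.3-fold, adjusted p = 0.0029). ATG19, the receptor of the constitutive route, passed in HS. There it was 3.07 and 2.67 without sucrose and 2.68 and 3.52 at 50%, against 0.202 to 0.445 (median 0.337), rises of 3.21 ± 0.98 (adjusted p = 0.047) and 3.31 ± 0.98 (adjusted p = 0.027). At 40% it was 0.903 and 1.86 (2.07 ± 0.98, adjusted p = 0.40).

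In LS ATG19 was 2.41 and 2.61 at 40%, 4.55 and 0.237 at 50% and 0.979 and 1.32 without sucrose, and its reference ran from 0.214 to 3.31 (median 0.659). The changes of 1.85, 0.58 and 0.71 ± 0.98 did not pass (adjusted p = 0.21, 0.70 and 0.91). Its first replicates at 5 to 20% were 0.214 to 0.297, and without the 6 arrays it rose by 3.29 at 40% and 4.15 at 50%. The difference between HS and LS in these responses of ATG19 was -1.23 to 2.73 with and without the 6 arrays and did not pass at 0, 40 or 50%.

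ATG32, the receptor for mitochondria, kept a narrow reference of 0.55 to 1.23 in LS (median 0.935) and 0.693 to 0.934 in HS (median 0.802). It was 2.96 and 3.19 in LS at 40% and 4.98 and 1.73 at 50%, rises of 1.81 ± 0.51 (3.50-fold, adjusted p = 0.019) and 1.74 ± 0.51 (3.34-fold, adjusted p = 0.020). On the HS arrays it was 2.33 and 3.13 at 50% and rose by 1.76 ± 0.51 (3.38-fold, adjusted p = 0.026). Its HS arrays without sucrose (1.76 and 1.10) and at 40% (1.87 and 1.18) also lay above the reference, with changes of 0.80 and 0.89 ± 0.51 (adjusted p = 0.46 and 0.53). In LS without sucrose it was 0.908 and 0.431 (-0.49 ± 0.51, adjusted p = 0.88). ATG33, an outer membrane protein of mitochondria that acts in their autophagy, was 3.58 and 2.80 in HS without sucrose against 0.336 to 0.784 and changed by 2.63 ± 0.89 (adjusted p = 0.080). It passed in none of the responses.

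ATG20, a sorting nexin that acts with Snx4, was 9.84 and 16.6 in LS at 40% and 23 and 14.9 at 50%. Its reference was 0.0380 to 11.9 (median 0.357), where the highest array is replicate 2 at 10% and the first replicates reached only 0.146. It rose by 5.09 ± 1.30 (34-fold, adjusted p = 0.010) and 5.62 ± 1.30 (49.3-fold, adjusted p = 0.0048). In HS its arrays at 0% (5.47 and 4.91) and 50% (5.54 and 10.4) were above the reference of 0.204 to 1.11, with changes of 3.06 and 3.61 ± 1.30 (adjusted p = 0.20 and 0.069).

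ATG40, a receptor for the endoplasmic reticulum, was 3.06 and 3.88 in HS without sucrose and 1.81 and 9.66 at 50%, against 0.146 to 0.292 (median 0.199). It rose by 4.09 ± 1.07 (17-fold, adjusted p = 0.020) and 4.37 ± 1.07 (20.7-fold, adjusted p = 0.0090). In LS at 50% it was 13.3 and 13.7 against 0.284 to 5.07, a rise of 3.45 ± 1.07 (adjusted p = 0.026). ATG36, the receptor for peroxisomes, was 7.70 and 4.0 in LS at 50% against 0.425 to 2.74 and rose by 2.48 ± 0.65 (adjusted p = 0.0095). In HS without sucrose it was 2.58 and 2.38 against 0.398 to 0.665 and rose by 2.22 ± 0.65 (adjusted p = 0.037). ATG21, a lipid-binding protein that recruits the conjugation machinery, and ATG26, a sterol glucosyltransferase that acts in the autophagy of peroxisomes in the yeast Pichia pastoris, passed in no response, with changes of -0.84 to 1.76.

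**Figure D4:**
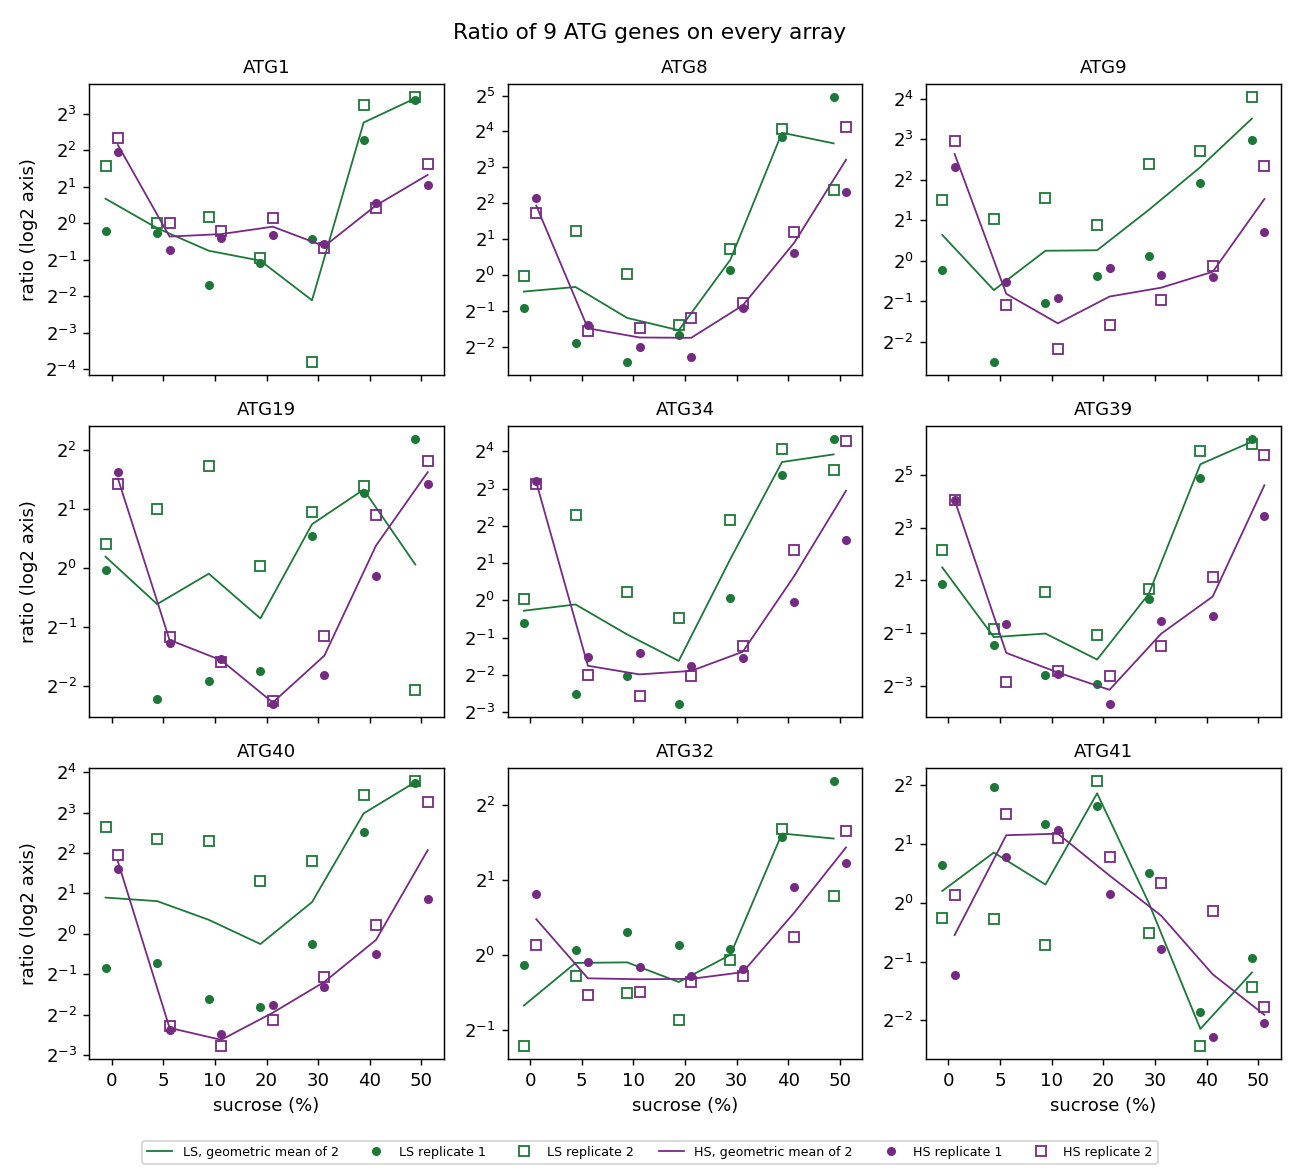
Ratio (log2 axis) of 9 ATG genes on every array against sucrose, for LS (green) and HS (purple), with circles for replicate 1, squares for replicate 2 and lines through the geometric mean of both. At 50% sucrose the ATG39 points lie at 81.8 and 71.3 for LS and at 10.9 and 54.4 for HS, and ATG41 falls over the same range. LS replicate 2 lies above replicate 1 at 5, 10 and 20% for all genes shown except ATG32 and ATG41.

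The vacuolar genes did not pass in any response. ATG15, the lipase that opens autophagic bodies in the vacuole, was 1.01 and 1.17 at 40%, 1.72 and 0.166 at 50% and 1.34 and 1.19 without sucrose in LS, against 0.278 to 1.43 (median 0.850). The changes were 0.56, -0.47 and 0.78 ± 0.77 (adjusted p = 0.66, 0.70 and 0.86). The HS values of this gene were 0.647 and 0.718 at 40%, 0.547 and 0.630 at 50% and 1.64 and 1.24 without sucrose, against 0.456 to 1.22 (median 0.774). Only the arrays without sucrose lay outside that range, with a change of 0.95 ± 0.77 (adjusted p = 0.58), and the changes at 40 and 50% were -0.12 and -0.33 ± 0.77 (adjusted p = 0.99 and 0.83). ATG22, which exports amino acids from the vacuole, was 1.42 and 2.37 at 40% and 2.71 and 1.85 at 50% in LS, a change of 2.40 ± 0.91 at 50% (adjusted p = 0.066), and in HS its changes were -1.10 to 0.06.

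ATG41, which binds Atg9 and acts in forming the membrane, was the only ATG gene that fell in the fit of all arrays. In LS it was 0.275 and 0.185 at 40% and 0.523 and 0.370 at 50%, below a reference of 0.609 to 4.2 (median 2.84). It fell by 3.16 ± 0.71 (8.93-fold, adjusted p = 0.0045) and by 2.19 ± 0.71 (4.58-fold, adjusted p = 0.032) on the log2 scale. The HS values were 0.243 and 0.293 at 50% against 1.11 to 2.86 (median 1.93), a fall of 2.84 ± 0.71 (7.14-fold, adjusted p = 0.010). The HS arrays at 0% (0.426 and 1.10) and 40% (0.205 and 0.903) were also below the reference, with changes of -1.48 and -2.15 ± 0.71 (adjusted p = 0.27 and 0.14). The other changes that passed in these comparisons were rises.

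Of the 45 calls of single ATG genes in all comparisons, 10 held under every alternative processing and with each array left out in turn. These were ATG39 in LS at 40 and 50% and in HS at 0 and 50%, ATG8 in LS at 40 and 50% and in HS at 50%, ATG1 and ATG34 in LS at 50%, and ATG40 between the yeasts. All 6 other calls at 40% in LS ended without replicate 2 at 40%, and all other calls in HS without sucrose ended without either array of that group, those of ATG1, ATG7, ATG19 and ATG36 also without single arrays of other groups. In HS at 50%, ATG34 and ATG40 ended without replicate 2 at 50%, and ATG7, ATG19, ATG23, ATG32 and ATG41 without either array, while ATG19, ATG23 and ATG32 also ended without single arrays of other groups. In LS at 50% ATG9 ended without replicate 2, ATG32 and ATG36 without replicate 1, and ATG4, ATG40 and ATG41 without either or without single first replicates at 5 to 20%, while ATG11 ended without replicate 2 or without the first replicate at 10 or 20%. With LS fitted alone, the calls left were those of ATG8 and ATG39 at 40% and of ATG1, ATG8, ATG34 and ATG39 at 50%. With 5% sucrose as the only reference, those left in HS were of ATG2, ATG34 and ATG39 without sucrose and of ATG8, ATG34, ATG39, ATG40 and ATG41 at 50%. No change of sign was seen for any of the 45.

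Between the yeasts, taken as the mean over the 7 concentrations, 6 genes (17.6%) passed, where 15.4% of all probe sets passed, a share close to the background. ATG26 was higher in HS and ATG21, ATG29, ATG36, ATG39 and ATG40 were lower, against 4.06% and 11.4% of all probe sets. The median difference (HS minus LS) was -0.55 for the ATG genes and -0.02 for all probe sets, and -2.41 for the S. pombe probe sets. It was above 0 for 9 ATG genes and for 49.1% of all probe sets. Without the 6 LS arrays 10 genes passed (3 up, 7 down) against 28.9% (10.2% and 18.7%), and only ATG36 and ATG40 of the 6 remained. The count lay between 1 and 12 on leaving out single arrays of either yeast, and ATG40 alone passed with any array left out.

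ATG40 ran from 0.284 to 13.7 (median 4.22) on the 14 LS arrays and from 0.146 to 9.66 (median 0.440) on the 14 HS arrays, a difference of -1.96 ± 0.50 (adjusted p = 0.013), and -0.84 without the 6 arrays. ATG36 ran from 0.425 to 7.70 (median 1.84) in LS and from 0.371 to 3.17 (median 0.646) in HS, a difference of -0.96 ± 0.30 (adjusted p = 0.036), and -0.65 without them. The ranges of the yeasts overlap. HS was the lower yeast at 6 of the 7 concentrations for each, as it was for genes that did not pass, such as ATG2, ATG8 and ATG9. How many of all probe sets were lower at 6 was not counted. The call of ATG36 was kept in 10 of 28 fits with 1 array left out. It was lost under median centring and under quantile normalization.

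The other 4 differences did not pass without the 6 arrays, and each also ended on leaving out single arrays, among them LS replicate 2 at 40% and at least 1 HS array. ATG29 ran from 0.209 to 52.0 (median 5.47) in LS and from 0.144 to 1.91 (median 0.662) in HS, a difference of -2.49 ± 0.73 (adjusted p = 0.028). Without the 6 arrays the LS range was 0.209 to 7.15 (median 1.11) and the difference of -0.95 did not pass. ATG21, lower in HS at all 7 concentrations (7.84% of all probe sets were), ran from 0.674 to 12.3 (median 1.99) in LS and from 0.556 to 2.06 (median 0.800) in HS (-1.37 ± 0.46, adjusted p = 0.049, and -0.24 without the 6 arrays). ATG39 ran from 0.132 to 81.8 (median 1.55) in LS and from 0.0784 to 54.4 (median 0.659) in HS (-1.26 ± 0.38, adjusted p = 0.033, and -0.75 without them). ATG26 was higher in HS at all 7 concentrations (6.18% of all probe sets were), at 0.538 to 2.29 (median 1.52) against 0.157 to 2.54 (median 0.566), a difference of 1.04 ± 0.34 (adjusted p = 0.045), and 0.45 without the 6 arrays.

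Whether the yeasts differ in their responses was tested as the HS minus LS difference of each change. None of the ATG genes passed by limma at 0, 40 or 50% sucrose, where 0.655%, 0.418% and 0.491% of all probe sets did, and 7, 6 and 2 of them had an unadjusted p under 0.05, against 8.55%, 12.2% and 11.4% of all probe sets. The median difference was 1.39 at 0% (-0.11 for all probe sets), -0.89 at 40% (0.12) and -0.36 at 50% (0.02). With all arrays the counts in 1 yeast and not in the other are thus no shown difference. At 0% the largest values were those of ATG14 (5.32 ± 2.58, adjusted p = 0.60), ATG34 (4.44 ± 1.42, adjusted p = 0.25) and ATG39 (3.62 ± 1.17, adjusted p = 0.26). At 40% they were those of ATG20 (-4.18 ± 1.84, adjusted p = 0.37), ATG39 (-3.93 ± 1.17, adjusted p = 0.14) and ATG13 (-3.55 ± 1.26, adjusted p = 0.23).

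Without the 6 arrays the picture at 40% was another, with 15 genes passing, 14 with the lower response in HS and 1, ATG27, with the higher, against 27.5% of all probe sets (12.8% lower and 14.7% higher). Among the 14 were ATG20 (-6.49), ATG39 (-4.87), ATG13 (-4.10), ATG34 (-3.61), ATG8 (-3.40) and ATG1 (-3.03). On the 40% arrays, which are the same in both fits, ATG1 was 4.84 and 9.44 in LS and 1.47 and 1.33 in HS, and the LS values of ATG8 were 14.5 and 16.9 and its HS values 1.52 and 2.30. At 0 and 50% the counts without these arrays were 1 (ATG14) and 4 (ATG1, ATG3, ATG13 and ATG20, all lower in HS), against 1.38% and 12.7% of all probe sets (6.04% lower in HS). The count at 0% was also 1 without LS replicate 1 at 5%.

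Of 38 other genes of the pathway, namely partners, upstream kinases, transcriptional regulators, traffic proteins, cargo and vacuolar proteases, 37 were on the array with a symbol. Apart from the fit without the 6 LS arrays, the alternative settings and left-out arrays were followed for the ATG genes, not for these 37. In LS 10 of them rose and 1 fell at 40%, and 9 rose and 2 fell at 50%. In HS 6 rose without sucrose, 1 rose and 1 fell at 40%, and 6 rose and 1 fell at 50%. The shares were 29.7% and 29.7% in LS, against 17.9% and 22.1% of all probe sets. They were 16.2%, 5.41% and 18.9% in HS, against 8.35%, 2.42% and 15.1%, the last close to the background. Without the 6 arrays the share that passed was below that of all probe sets in LS at 40 and 50% and in HS at 50%. It was close to that of all probe sets in HS at 0% and above it only in HS at 40%. The median changes of the 37 genes were 0.84 and 0.49 in LS, and 0.79 and 0.66 there without the 6 arrays. In HS they were 0.16, 0.22 and 0.25, and all were nearer to 0 than those of the ATG genes.

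The cargo and proteases held the largest of these changes. AMS1, the vacuolar mannosidase carried by Atg19 and Atg34, was 52.7 and 50.4 in LS at 40% and 102 and 3.13 at 50%, against 0.0553 to 0.956, and rose by 7.40 ± 1.01 (169-fold, adjusted p = 0.00012) and 5.87 ± 1.01 (adjusted p = 0.00051). Its HS values were 26.8 and 18.8 without sucrose and 8.34 and 54.6 at 50%, against 0.162 to 0.546, and rose by 6.22 ± 1.01 (adjusted p = 0.00074) and 6.15 ± 1.01 (adjusted p = 0.00049). PRB1, vacuolar proteinase B, rose in the same 4 responses, by 3.28, 3.52, 2.64 and 3.18 ± 0.64 (adjusted p = 0.0015, 0.00077, 0.012 and 0.0021). PEP4, proteinase A, rose in LS by 2.68 ± 0.86 at 40% and 3.26 ± 0.86 at 50% (adjusted p = 0.036 and 0.010). In HS its arrays at 0% (2.34 and 1.32) and 50% (1.54 and 2.62) lay above the reference of 0.203 to 0.583, with changes of 2.01 and 2.20 ± 0.86 that did not pass (adjusted p = 0.20 and 0.093), and the differences between the yeasts in these responses did not pass either.

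APE1, the aminopeptidase that is the main cargo of Atg19, differed from these. It rose in LS at 50% sucrose (5.02 and 5.97, 2.62 ± 0.90, adjusted p = 0.042), a call lost without the 6 arrays. It was 0.0207 and 0.473 in HS at 40% against 0.856 to 3.57 and fell by 4.50 ± 0.90 (22.7-fold, adjusted p = 0.0085). The lower array is near 0.01, the lowest of all deposited values. APE1 was also 0.326 and 0.193 in HS at 30%, and 0.185 and 0.936 at 50%. In LS it was 0.385 and 0.192 at 30%, and 4.22 and 2.36 at 40% against 0.420 to 3.86 (1.83 ± 0.90, adjusted p = 0.17). The difference between the yeasts at 40% passed for this gene (-6.33 ± 1.27, adjusted p = 0.028).

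Among the regulators, GIS1 and its relative RPH1, demethylase-family proteins of which Rph1 is known to hold ATG transcription down, rose with the ATG genes. GIS1 rose by 4.09 and 3.79 ± 0.75 in LS at 40 and 50% and by 2.79 and 3.06 ± 0.75 in HS at 0 and 50% (adjusted p = 0.0010, 0.0015, 0.023 and 0.0089). RPH1 rose by 2.97 and 2.11 ± 0.69 in LS (adjusted p = 0.0056 and 0.034) and, in HS, by 2.71, 3.70 and 4.52 ± 0.69 at 0, 40 and 50% (adjusted p = 0.017, 0.0049 and 0.00029). At 40% in HS it was 3.90 and 4.03 against 0.230 to 0.475. UME6 and GCN4, a repressor and an activator of ATG genes, passed in no response.

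Of the partners SNX4, which pairs with Atg20, rose by 3.24 and 3.21 ± 0.51 in LS at 40 and 50% and by 2.46 and 2.55 ± 0.51 in HS at 0 and 50% (adjusted p = 0.00031, 0.00025, 0.0040 and 0.0020). VPS30, a subunit of the lipid kinase complex, passed in none. Of the upstream kinases TPK2, a catalytic subunit of protein kinase A, rose by 3.68 ± 1.07 in LS at 40% and by 4.43 and 3.96 ± 1.07 in HS at 0 and 50% (adjusted p = 0.022, 0.012 and 0.017). TPK3, another such subunit, fell by 2.50 ± 0.50 in LS at 50% (adjusted p = 0.0015). KOG1, a core subunit of TOR complex 1, fell by 1.84 ± 0.55 in LS at 40% and by 1.67 ± 0.55 in HS at 50% (adjusted p = 0.026 and 0.047). TCO89, another subunit of it, rose by 2.0 and 1.93 ± 0.59 in LS at 40 and 50% (adjusted p = 0.024 and 0.024). The first LS replicates of TCO89 at 5 to 20% were 0.635 to 0.999. On replicate 2 at 5 and 10%, among the 6 arrays, it was 0.156 and 0.168, which adds to the size of these rises. Among the traffic genes VTI1, a fusion protein, rose by 2.20 ± 0.67 in LS at 40% (adjusted p = 0.028) and TRS85, a tethering subunit, fell by 2.70 ± 0.64 in LS at 50% (adjusted p = 0.0053). Between the yeasts 6 of the 37 (16.2%) passed, a share close to the 15.4% of all probe sets. With all arrays 4 were higher in HS (RIM15, TPK3, GLN3 and GAT1, by 1.02 to 1.18) and TOR1 and PRB1 were lower, by -0.88 ± 0.26 and -1.15 ± 0.29 (adjusted p = 0.029 and 0.014). Of these 6, TPK3, TOR1 and PRB1 passed without the 6 arrays.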

How the data were processed

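The deposited table holds, per the series' design text, values the authors made in GeneSpring v7.0 by scaling each chip on its positive genes without those of S. pombe and then scaling each gene, so the deposited unit is a ratio on a linear scale. No source used here states how probes were summarised. The table has 10928 probe sets, of which 7244 had 1 symbol, 1 had several and 3683 had none. 12 symbols were updated through RefSeq R64, and 5498 probe sets of S. cerevisiae were tested. Log2 ratios were fitted in limma 3.58.1 under R 4.3.3, 1 mean for each of 14 groups, with 14 residual and 5.41 prior degrees of freedom, 2-sided tests and Benjamini-Hochberg adjustment within each comparison. Where a response has 2 arrays against 6, the spread comes from all 28 arrays. The fit was tested on simulated data. The members and gene lists were chosen with earlier results of these data known. Genes with values for each sample were the 6 largest called changes per comparison (all where 6 or fewer passed) and ATG1, ATG7, ATG8, ATG9, ATG14, ATG15, ATG19 and ATG32, with up to 3 called genes per list of other genes. Other members were added by role. Alternatives were median centring, quantile normalization, an offset of 0.216 (5th percentile), a variance trend, only probe sets with a median of 1 (within 0.006), a replicate block, each yeast alone, 5% sucrose as the only reference, and leaving out the 6 LS arrays or each array. Plots were drawn with matplotlib 3.10.9.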

Additional observations from a re-analysis of the deposited data

How the results depend on the processing

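The counts of ATG genes passing depended on the spread assumed. Without the 6 LS arrays of high S. pombe signal they were 24 in LS and 24 in HS for any concentration, 1, 25 and 26 in LS at 0, 40 and 50%, 24, 11 and 23 in HS, 10 between the yeasts, and 1, 15 and 4 for the differences in response at 0, 40 and 50%. With each yeast fitted alone they were 1 (LS) and 23 (HS) for any concentration, 2 and 4 in LS at 40 and 50%, and 22, 10 and 22 in HS. Quantile normalization gave 3 in LS and 13 in HS for any concentration, 5 in LS at 50%, and 8 and 15 in HS at 40 and 50%. With 5% sucrose as the only reference they were 7 in LS at 50% and 3 and 5 in HS at 0 and 50%. The offset gave 1 for the difference in response at 40%. The cause was not tested, beyond the fewer arrays in each fit. Replicate numbers were not taken as pairs in the main fit. Same-numbered arrays deviated together (correlation over 0.1) in 15 of 21 pairs of LS groups, 18 of 21 of HS groups and 42 of all 91. The median correlation was 0.392 in LS, 0.288 in HS and 0.0366 over all pairs. Most same-numbered arrays of 1 yeast thus deviated together, which the main fit leaves out. The replicate block was 1 term shared by both yeasts, and a block within each yeast was not fitted. With the shared block the counts were 10 and 5 for any concentration in LS and HS, and 12 and 13 in LS at 40 and 50%. They were 10, 1 and 13 in HS at 0, 40 and 50%, and 9 between the yeasts. Leaving out single arrays gave 3 to 11 and 1 to 6 for any concentration in LS and HS, 0 to 1, 2 to 14 and 7 to 15 in LS at 0, 40 and 50%, 1 to 12, 0 to 1 and 2 to 13 in HS, 1 to 12 between the yeasts, and 0 to 1, 0 to 0 and 0 to 0 for the differences in response. The other counts lay within 1.5 times. The share of all probe sets passing is not given here for settings other than leaving out the 6 arrays, nor for any concentration there. These counts may therefore follow the number of all probe sets passing, and were not compared with it. Of 393 repeats of the 45 calls under the other settings 340 passed again, as did 1059 of 1260 with 1 array left out, and none changed direction. The probe set of lowest mean was not run, as no ATG gene has several. The signal over background of single probe sets was not analysed here.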
